A study of Sus scrofa with 27 samples.

Results

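Variation between animals was described in the mural granulosa cells (GCs) of the 14 feed-restricted (RES) sows, out of 27 samples in the series. The RES sows were wild type Large White times Norwegian Landrace females fed 3.25 kg per day over the closing weeks of lactation, and tissue was taken on day 2 after weaning. The 13 full-fed (FF) sows, of the same cross and genotype, received the full ration over those weeks and were sampled on the same day after weaning. They served as separate samples in which a pattern could be looked up. Spread and slopes on the markers were also tested between RES and FF, whereas group means were not compared. GCs were collected by laser capture microdissection from 1 follicle per sow, the largest healthy one. The RES sows entered the sampling because they had lost the most body weight, so the 14 animals are a selected part of the restricted herd. The FF sows were selected for the lowest body weight loss. RES and FF thus differ by this selection as well as by feed. The labels say that sows were fully fed after weaning, whereas the methods say that all received the same amount. Each sample is 1 sow, 1 follicle and 1 library, so variation between sows, between follicles and between libraries cannot be told apart.

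Members were those 17364 of 35670 Ensembl identifiers whose counts averaged 5 or more in the 14 RES samples. Of these, 11380 had a symbol. Total counts after removal of PCR copies were 12942198 to 18120922 per RES sample. Levels below are counts divided by DESeq2 size factors computed on the 14 samples (normalized counts), and the counts do not correct for gene length, so levels are compared between sows and not between genes.

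Mural GCs line the inner wall of the follicle, proliferate under follicle-stimulating hormone and then leave the cell cycle as they acquire the luteinizing hormone receptor and differentiate. CDK1 is the kinase that drives entry into mitosis, and the product of CDKN1A, p21, blocks cyclin-dependent kinases and so halts the cycle. IGFBP7 is a secreted binding protein of the insulin-like growth factor (IGF) system, FOXO1 is a transcription factor held out of the nucleus by AKT, and NRAS is a small GTPase upstream of ERK.

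Genes of GC identity were expressed in all 14 samples. INHA and INHBA, which encode inhibin subunits, ranged from 2711 to 13350.5 and from 4514 to 23921 normalized counts. VCAN, a matrix proteoglycan of GCs, ranged from 42749.9 to 82365. Markers of other cells were present at levels above 0. The summed level of 16 measured endothelial markers ranged from 1251 to 3562 normalized counts, that of 13 pericyte and smooth muscle markers from 2326 to 9152, that of 15 theca and stroma markers from 13478 to 41973 and that of 10 immune markers from 133 to 764. RES sow 7 had the highest sum in each of these 4 lists, and no measured gene of them had a median of 0. In bulk samples, a change in the share of a cell type and a change in RNA per cell cannot be told apart.

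Some samples stood apart before any gene was considered. An identifier without a symbol took 4.45% to 5.56% of all counts in RES sows 6, 7, 8, 9 and 14, but 0.0232% to 0.0859% in the other 9 RES sows. The same split ran through the FF samples, of which 6 were above 1% and 7 below. Samples were also divided into an upper and a lower quality group, of 7 RES samples each, at a gap in the share of high-quality bases that the study lists, because no sequencing batch is named. In principal component analysis of the 500 most variable identifiers, PC1 held 32.1% of the variance and PC2 16.7%. Along PC1, RES1 (24.9) and RES7 (-30.4) were the extremes, and PC2 set RES4 (33.6) against RES3 (-23.5).

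The 5 marker genes differed between RES sows to very different degrees. CDK1 (chr14:64233945-64255290, Sscrofa11.1) had 414 normalized counts in RES7, a median of 1500.2 and 2630.5 in RES1. CDKN1A (chr7:32354776-32363771) had 17.2 in RES1, a median of 70.7 and 128 in RES7. IGFBP7 (chr8:56283089-56357822) had 382 in RES1, a median of 926 and 3218 in RES7. RES1 and RES7 were thus at opposite ends for all of these genes, and RES7 lay beyond the other 13 sows in each: next to it came 848 in RES10 for CDK1, 109.7 in RES5 for CDKN1A and 1469 in RES2 for IGFBP7. NRAS (chr4:105845913-105853769) was lowest in RES7 (797), with a median of 1314 and a highest value of 1658 in RES1. FOXO1 (chr11:15317222-15410059) ran from 3640.3 in RES1 over a median of 6727 to 8973 in RES5, and RES7, at 8272, was within the range of the others. Of the 1120 exon bases of IGFBP7 in RefSeq, 251 overlap exons of POLR2B on the opposite strand. Since the counting command sets no strand option, IGFBP7 counts may hold or lack reads there.

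**Figure D1:**
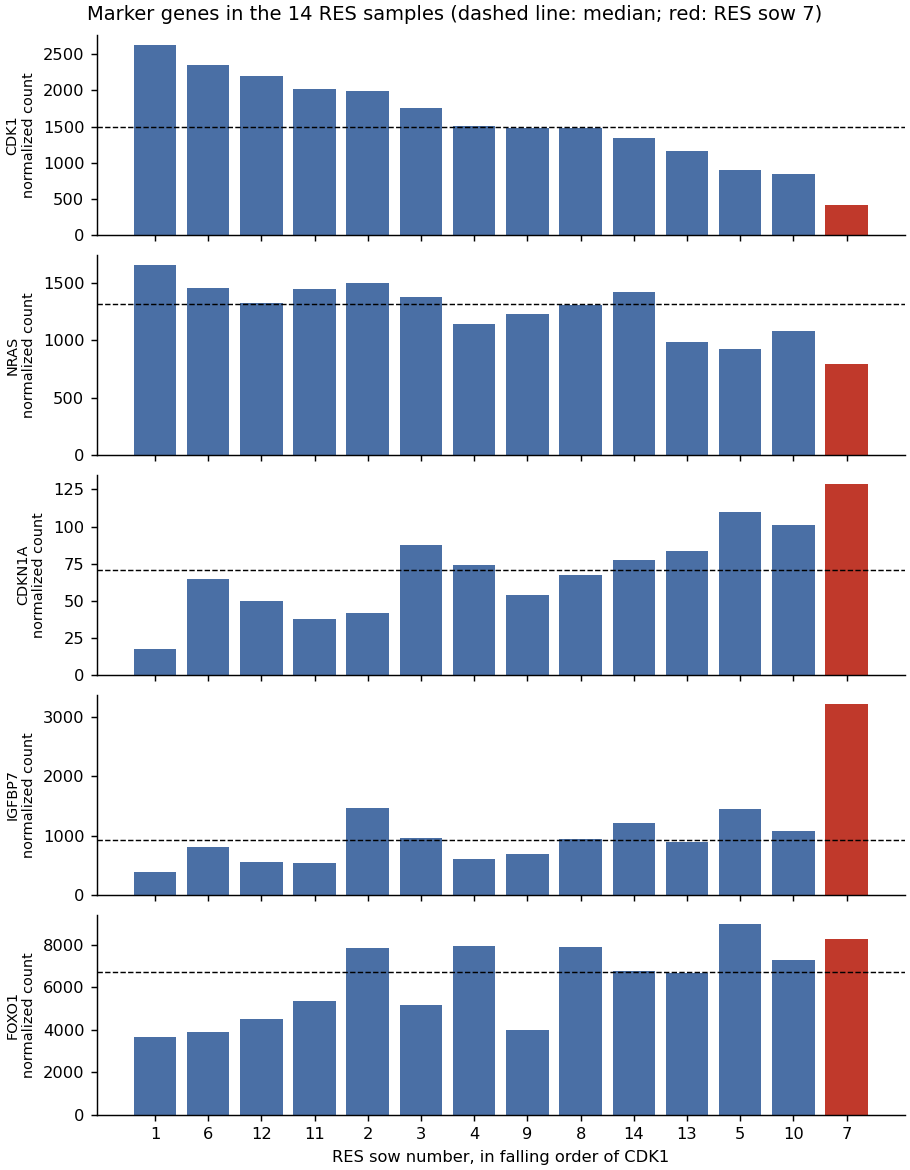
Normalized counts (vertical axes, linear from 0) of CDK1, NRAS, CDKN1A, IGFBP7 and FOXO1 in each of the 14 RES samples, ordered from the highest to the lowest CDK1. Bars are single samples, the dashed line is the median and RES sow 7 is red. CDK1 falls from 2630.5 to 414, while CDKN1A has its lowest value (17.2) in RES1 and its highest (128) in RES7.

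The question of how the markers moved together was asked over 9 pairs, with Spearman's rho and Pearson's r on normalized counts and a two-sided permutation test. CDK1 was low where CDKN1A was high (rho = -0.85, permutation p = 0.00027, r = -0.89, permutation p = 4e-05, n = 14). The adjusted p over all 17363 identifiers tested against CDKN1A was 0.0248. Without RES7 rho was -0.81, and without RES7 and RES1, the 2 samples farthest from the median of CDKN1A, r was -0.78 (permutation p = 0.0031). Within the upper quality group rho was -0.68 (exact permutation p = 0.11, n = 7) and within the lower group -0.79 (exact permutation p = 0.048, n = 7). Among the 9 samples below the split in the unnamed identifier it was -0.88 (exact permutation p = 0.0031).

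NRAS went with CDK1 (rho = 0.85, permutation p = 0.00018, r = 0.90, permutation p = 3e-05, adjusted p = 0.00925) and against CDKN1A (rho = -0.80, permutation p = 0.0009, r = -0.86, permutation p = 9e-05, adjusted p = 0.0377). Both held without RES7, at 0.81 and -0.75. Without RES1 and RES7, the 2 samples farthest from the median of either marker, r was 0.80 and -0.72. Both passed 0.05 within each quality group by exact permutation tests, at rho = 0.93 and 0.89 with CDK1 and -0.79 and -0.82 with CDKN1A.

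IGFBP7 was less firmly tied to the other markers. Its rho was 0.69 with CDKN1A (permutation p = 0.00798, r = 0.71, permutation p = 0.002, adjusted p = 0.0989) and -0.70 with CDK1 (permutation p = 0.00738, r = -0.70, permutation p = 0.00233, adjusted p = 0.0748), so neither pair passed after adjustment over all identifiers. Without RES1 and RES7 r was 0.44 (permutation p = 0.15) with CDKN1A and -0.43 (permutation p = 0.16) with CDK1 and rho was 0.51 (permutation p = 0.0942) and -0.52 (permutation p = 0.0888), so that neither passed 0.05 with both sows out. Without RES7 alone rho was 0.62 (permutation p = 0.0292) and -0.62 (permutation p = 0.028). Within the lower quality group rho was 0.29 with CDKN1A and -0.21 with CDK1, and within the upper group 0.89 and -0.61. IGFBP7 itself was 382 to 1072 in the upper quality group and 900.2 to 3218 in the lower group, so the groups overlapped little. The part of sequencing quality in these relations was not tested. IGFBP7 and NRAS gave rho = -0.40 (permutation p = 0.16, r = -0.61, permutation p = 0.0152, adjusted p = 0.428) and r = -0.13 without RES7 and RES1.

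FOXO1 had higher levels where CDK1 was low (rho = -0.72, permutation p = 0.00464, r = -0.73, permutation p = 0.00321, adjusted p = 0.0591) and where IGFBP7 (rho = 0.67, permutation p = 0.0105, r = 0.59, permutation p = 0.00857, adjusted p = 0.122) and CDKN1A (rho = 0.62, permutation p = 0.0219, r = 0.63, permutation p = 0.0147, adjusted p = 0.159) were high. None of these passed after adjustment. Without RES1 and RES7 r was -0.63 with CDK1, 0.64 with IGFBP7 and 0.47 with CDKN1A, while rho was -0.57 (permutation p = 0.0553), 0.49 (permutation p = 0.11) and 0.40 (permutation p = 0.199), so that none passed 0.05 by rank. With CDKN1A it also missed without RES7 alone (rho = 0.53, permutation p = 0.0692). Within the upper quality group rho was -0.71 with CDK1, 0.29 with IGFBP7 and 0.61 with CDKN1A, and within the lower group -0.54, 0.57 and 0.29.

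In the 13 FF samples the same pairs gave rho = -0.35 for CDKN1A and CDK1, 0.37 for CDKN1A and IGFBP7, 0.05 for CDK1 and IGFBP7, 0.60 for CDK1 and NRAS, 0.04 for CDKN1A and NRAS and 0.34 for IGFBP7 and NRAS. With FOXO1 rho was 0.23 for CDKN1A, -0.36 for CDK1 and 0.34 for IGFBP7. The slope of IGFBP7 on CDK1 differed from that in FF by -0.83 (log2 units per log2 unit) at p = 0.000147, unadjusted, with edgeR's interaction test, and its adjusted p over all identifiers was 0.324.

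**Figure D2:**
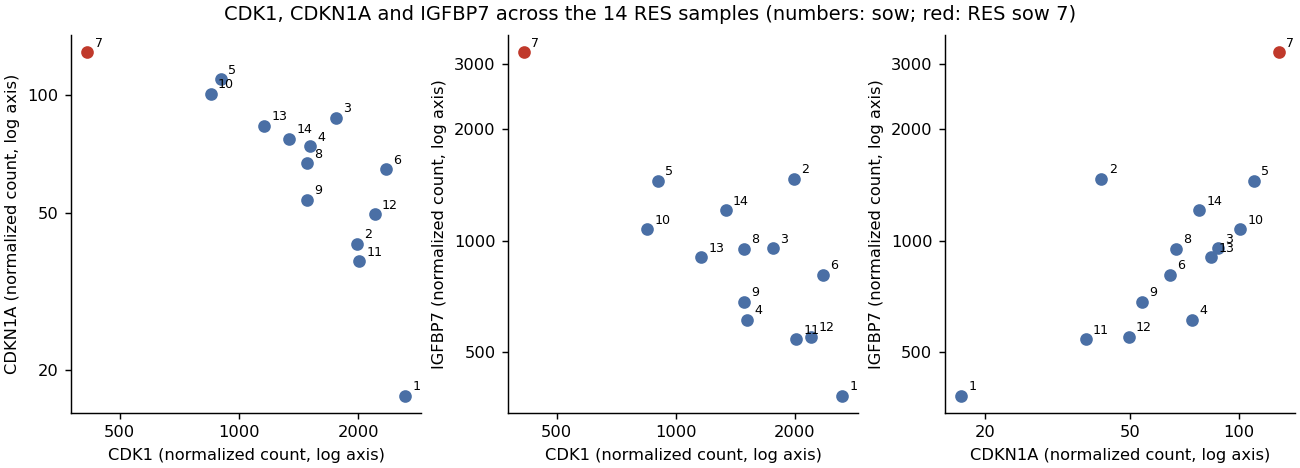
CDKN1A against CDK1, IGFBP7 against CDK1 and IGFBP7 against CDKN1A in the 14 RES samples, as normalized counts on log axes. Each point is 1 sow, numbered, with RES sow 7 in red. The left panel falls from RES7 to RES1 (rho = -0.85), whereas in the others RES1 and RES7 sit at the far corners and RES2 stands off the trend.

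Genes that follow CDK1 were the largest group. Of 17363 identifiers, 819 (4.72%) rose and fell with CDK1 across the RES sows and 346 (1.99%) ran against it, at an adjusted p under 0.05 (Spearman's rho, permutation test, Benjamini-Hochberg), which needed a rho of at least 0.74 in size. Without RES7, 335 passed and 331 of these were shared with the 1165. All 1165 kept their sign, which a rho of that size can hardly lose when 1 sample is left out. The count was 411 without RES1, 507 without RES5, 701 without RES6, 652 without RES10 and 750 without RES14. Of the 1157 followers that were also measured in FF, 1042 had a rho of the same sign there, with a median of 0.48 in the direction seen in RES, against a median size of 0.26 over all identifiers in FF.

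PLK4, the kinase that starts centriole duplication, followed CDK1 most closely. It had 639.6 normalized counts in RES7, a median of 1619 and 2569 in RES1 (rho = 0.996, r = 0.98, 0.97 without RES1 and RES7). ATAD2, a chromatin ATPase of replicating cells, ran from 1073 over 3809.8 to 5305 (rho = 0.99), and CEP152, a scaffold that recruits PLK4 to the centriole, from 226 over 602 to 986 (rho = 0.98). WDHD1 of the replisome (rho = 0.98), ZWILCH of the spindle checkpoint (rho = 0.98) and SKA1 of the kinetochore (rho = 0.98) completed the 6 highest. In each of these 6 genes the lowest sample was RES7, and in 5 the highest was RES1. Their adjusted p was 0.00511, from permutation p-values of 1e-05, the smallest that 100000 permutations can give. In FF their rho with CDK1 was between 0.67 (CEP152) and 0.93 (ZWILCH).

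The genes with a symbol and a mean of at least 20 that ran most strongly against CDK1 were a mixed group. RCBTB2, of the RCC1 and BTB domain family, ranged from 528 in RES6 over 674 to 905 in RES10 (rho = -0.93, adjusted p = 0.00511, permutation test). LYPD6, a membrane-anchored Ly6 protein, ranged from 5.43 in RES1 to 83.8 in RES7 (rho = -0.91), and SLC27A1, a fatty acid transporter, from 31.7 in RES1 to 173 in RES7 (rho = -0.90). SLC44A2, a choline transporter, ranged from 183 to 556 (rho = -0.89), MRTFB, a coactivator of serum response factor, from 102 to 269 (rho = -0.90) and CD34, a surface protein of endothelial and progenitor cells, from 14.7 to 73.5 (rho = -0.90). Without RES7 these 6 rho values were -0.87 to -0.92. The ranking used the rho nearer 0 of that with and that without RES7, so these values are partly set by it. Of all identifiers, 56 passed against CDK1 without RES7. CD34 is on the endothelial list, and the part of endothelial RNA in its pattern was not tested.

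Cell cycle genes made up the densest part of the CDK1 followers. Of the 42 measured S phase genes, 29 rose and fell with CDK1 and 0 ran against it by the permutation test. Against CDKN1A 10 passed and against IGFBP7 1. Of all identifiers, 4.72% rose and fell with CDK1, 2.1% ran against CDKN1A and 0.311% against IGFBP7. All 42 had a rho above 0 with CDK1, with a median of 0.83 (0.79 without RES7), against a median of -0.04 over all identifiers. CLSPN, which carries the replication checkpoint signal, ran from 327 over 932 to 1432 (rho = 0.96) and BRIP1, a helicase, from 118 over 380.2 to 672 (rho = 0.97). Of the 52 G2/M genes other than CDK1, 38 passed in the same direction, where 4.72% of all identifiers did, and 0 in the other. Their median rho was 0.84. Against CDKN1A ran 17 of all 53, CDK1 among them, where 2.1% of all identifiers did. TOP2A, the topoisomerase that untangles chromosomes, ran from 6165 over 19356 to 31738 (rho = 0.96), and TTK, a kinase of the spindle checkpoint, from 546 over 1840.1 to 2913 (rho = 0.97). KIF11, a spindle motor, ran from 1342 over 4004 to 6540.4 (rho = 0.96), and HMMR, a spindle-associated protein, from 1195 over 2906 to 4047 (rho = 0.96).

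Among 17 regulators of G1 (cyclins, kinases and transcription factors), 4 passed with CDK1, against 4.72% of all identifiers, namely CCNE2 (rho = 0.82), CDK2 (rho = 0.78), E2F2 (rho = 0.80) and MYCN (rho = 0.76). MYC and MYCN, related growth regulators, ran against IGFBP7 (rho = -0.85 and -0.87, adjusted p = 0.0457 and 0.0285, permutation test), as did 0.311% of all identifiers. Of 16 CDK inhibitors and p53 targets, CDKN1A itself and TP53INP1 (rho = -0.78), a stress-induced p53 cofactor, passed against CDK1, where 1.99% of all identifiers did. Of the 15 besides CDKN1A, 0 passed with CDKN1A by the permutation test (5 at an unadjusted p under 0.05). Of all identifiers, 1.09% followed CDKN1A in the same direction and 2.1% in the other. CDKN1B, which encodes the related inhibitor p27, had rho = 0.64 with CDKN1A (adjusted p = 0.139) and 0.81 with IGFBP7 (adjusted p = 0.0624).

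The promoters of some of these genes carry sequence elements known for cell cycle genes, the CHR (TTTGAA), which is bound by the DREAM and MuvB complexes, and the CCAAT box (CCAAT), bound by NF-Y. The 250 bases before the RefSeq start are shown for CDK1 and for TOP2A and ATAD2 as followers that hold these elements, with capitals marking CHR, CCAAT and the E2F element GGCGGGAA on either strand (build Sscrofa11.1).
CDK1, chr14:64233695-64233944, plus strand: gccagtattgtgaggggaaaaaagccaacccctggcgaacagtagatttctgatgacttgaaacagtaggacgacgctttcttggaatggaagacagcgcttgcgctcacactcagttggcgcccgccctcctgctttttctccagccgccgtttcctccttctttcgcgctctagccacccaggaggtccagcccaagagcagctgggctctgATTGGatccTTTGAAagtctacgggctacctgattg
TOP2A, chr12:22001050-22001299, plus strand: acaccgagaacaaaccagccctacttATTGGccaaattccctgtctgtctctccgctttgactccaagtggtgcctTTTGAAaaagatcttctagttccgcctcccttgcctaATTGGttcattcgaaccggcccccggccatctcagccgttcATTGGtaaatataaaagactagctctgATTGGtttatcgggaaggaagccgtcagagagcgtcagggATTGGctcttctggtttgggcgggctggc
ATAD2, chr4:16012028-16012277, plus strand: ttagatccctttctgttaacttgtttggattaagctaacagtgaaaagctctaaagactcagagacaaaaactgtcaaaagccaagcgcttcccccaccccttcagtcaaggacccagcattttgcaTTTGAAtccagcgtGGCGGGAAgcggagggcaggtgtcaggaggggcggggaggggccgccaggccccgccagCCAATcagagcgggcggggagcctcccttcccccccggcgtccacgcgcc
In the CDK1 sequence a CHR lay 27 to 22 bases before the start and a CCAAT box on the minus strand 36 to 32 bases before it. TOP2A held 1 CHR and 5 CCAAT boxes, and ATAD2 held 1 of each of the 3 elements. On either strand, CHR was in 17 of 53 G2/M promoters (32.1%), 3 of 42 S phase promoters (7.14%) and 2686 of 20604 promoters of protein-coding genes (13.0%). The CCAAT box was in 32 of 53 (60.4%), 20 of 42 (47.6%) and 6584 of 20604 promoters of these groups, and the E2F element in 1.89%, 14.3% and 2.74%. Among promoters of all genes that followed CDK1, CHR was in 108 of 684 (15.8%) for those in the same direction and in 16 of 201 (7.96%) for those in the other. PLK4, TTK and KIF11, which followed CDK1 as closely, held none of the 3 elements in this window. A match is a run of letters and not a shown binding site.

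Genes that follow CDKN1A numbered 190 (1.09%) in the same direction and 365 (2.1%) in the other. Without RES7, 43 passed, 41 of them shared with the 555. All 555 kept their sign, which was nearly fixed at a rho of at least 0.78 in size. Without RES1, whose 17.2 counts were the lowest of CDKN1A, 0 passed in the permutation test (2876 identifiers at an unadjusted p under 0.05). The count was 103 without RES5, 135 without RES10, 258 without RES8, 334 without RES13, 291 without RES14 and 876 without RES3. With the quality group or with RNA integrity as a covariate, edgeR's slope test called 0 genes (2547 and 2582 at an unadjusted p under 0.05), against 420 without a covariate. The number of followers of CDKN1A thus changed with single sows and, in edgeR's slope test, with the quality group or RNA integrity as a covariate. In FF, 321 of the 553 that were measured had the same sign, with a median rho of 0.10 in the direction seen in RES.

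RBBP8, which starts the resection of DNA breaks, ran most strongly against CDKN1A, from 866 in RES7 over a median of 1398 to 1953 in RES1 (rho = -0.96, r = -0.94, adjusted p = 0.0134 by the permutation test). EIF2AK2, the double-stranded RNA kinase PKR, ranged from 1243 over 1663 to 2174 (rho = -0.95), and SFPQ, a splicing factor, from 3499 over 4715 to 6079 (rho = -0.95). CDKN3, a phosphatase that acts on CDK1 and CDK2, ranged from 237 in RES7 over 668 to 983 in RES1 (rho = -0.95). DCAF10, a substrate receptor of ubiquitin ligases (rho = -0.94), and TPD52 (rho = -0.94) completed the 6 lowest. RES7 was the lowest sample in 5 of the 6, and RES5 in DCAF10.

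The genes closest to CDKN1A in the same direction had varied roles. NECAP2, an adaptor of clathrin-coated vesicles, ranged from 170.1 in RES1 over 225 to 384 in RES7 (rho = 0.94, r = 0.91). GLMP, a lysosomal membrane protein, ranged from 93.3 in RES12 over 124 to 214 in RES5 (rho = 0.93), although 990 of its 3209 exon bases overlap TMEM79 on the opposite strand. SLC43A2, a transporter of large neutral amino acids, ranged from 5.43 in RES1 over 27 to 65.7 in RES10 (rho = 0.92). C6orf89 ranged from 433 to 729 (rho = 0.91), APLP2, a relative of the amyloid precursor protein, from 673 to 1174 (rho = 0.90) and PLD3, a lysosomal exonuclease, from 71.5 to 315 (rho = 0.90). Their adjusted p was 0.0134 to 0.019, and 0.0299 to 0.0363 without RES7. They were ranked by the rho nearer 0 of that with and that without RES7. Their values without that sow are thus partly set by this choice. In FF, NECAP2 kept a rho of 0.73 with CDKN1A, whereas APLP2 had -0.47 and SLC43A2 -0.16.

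Genes that follow IGFBP7 were few, 67 (0.386%) in the same direction and 54 (0.311%) in the other. All 121 kept their sign without RES7, which was nearly fixed at a rho of at least 0.84 in size. Their median rho was 0.84 in size without RES7 against 0.87 with it. In the permutation test 0 passed without RES7, while 2503 had an unadjusted p under 0.05. The count was also 0 without RES1, RES5 or RES10 (2618, 3291 and 3081 at an unadjusted p under 0.05), 7 to 63 without RES6, 8, 9, 11, 12, 13 or 14, and 412, 551 and 833 without RES2, RES4 and RES3. Every omission thus moved the count by more than 1.5 times. Pearson's r on log2 values called 1212 and edgeR's slope test 1590, with 120 and 118 of the 121 among them. In FF, 104 of the 120 that were measured had the same sign.

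CDC25A, the phosphatase that activates CDK2 at entry into S phase, ran most strongly against IGFBP7, from 65.2 in RES7 over 174 to 253 in RES1 (rho = -0.96, r = -0.87, r = -0.94 without RES1 and RES7). ANXA4, an annexin, ranged from 105 to 221 (rho = -0.95) and PLS3, an actin bundler, from 2309 in RES7 to 5865 in RES12 (rho = -0.93). NCALD, a neuronal calcium sensor, ranged from 54.9 to 327 (rho = -0.92), FAT2, a giant cadherin, from 7.92 to 92.3 (rho = -0.89) and DAO, a D-amino acid oxidase, from 4.14 to 107 (rho = -0.90). FSHR, the receptor that carries the proliferative signal of follicle-stimulating hormone, had 228 in RES7, a median of 617 and 2989 in RES4, and it too ran against IGFBP7 (rho = -0.85, adjusted p = 0.0434, permutation test).

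FYN, a Src family kinase, followed IGFBP7 most closely, from 35.3 in RES1 over 65.8 to 135 in RES7 (rho = 0.96, r = 0.92). SPARC, a matrix protein of the basal lamina, ranged from 439 in RES1 over 908 to 1866 in RES5 (rho = 0.93, r = 0.73). SEMA3D, a secreted guidance cue, ranged from 36.2 to 423, with 146 the highest value outside RES7 (rho = 0.93). CSRNP3 ranged from 33.5 to 246 (rho = 0.93), GLDN, an extracellular matrix protein, from 167 to 1569 (rho = 0.91) and CASK, a membrane scaffold, from 1519 to 3212 (rho = 0.89). LHCGR, the luteinizing hormone receptor, had 1419 at the lowest, a median of 8415 and 23145 in RES7, and followed IGFBP7 (rho = 0.85, adjusted p = 0.0434) and ran against CDK1 (rho = -0.75, adjusted p = 0.0474, permutation test).

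Genes of the basal lamina and matrix had the most members, of the lists tried, passing with CDKN1A in the same direction. Of 18 measured, 6 followed CDKN1A, 5 ran against CDK1 and 2 followed IGFBP7, with none in the other direction by the permutation test, against 1.09%, 1.99% and 0.386% of all identifiers. Their median rho was 0.58 with CDKN1A, -0.64 with CDK1 and 0.56 with IGFBP7, against 0.03, -0.04 and 0.01 over all identifiers. COL4A1, a chain of type IV collagen, ranged from 1527 over 2624 to 4033 in RES10 (rho = -0.82 with CDK1), AGRN, a basal lamina proteoglycan, from 29.4 over 58.3 to 124 (rho = -0.82) and FN1, fibronectin, from 87.6 over 146 to 566 (rho = -0.75). NID2, nidogen, followed IGFBP7 (rho = 0.88). In FF the median rho of this list with CDK1 was -0.13. Endothelial and stromal cells also make these proteins, and the summed endothelial markers had a rho of -0.68 with CDK1, 0.67 with CDKN1A and 0.69 with IGFBP7 (-0.60, 0.58 and 0.61 without RES7). For the summed theca and stroma markers rho was -0.51 with CDK1, 0.33 with CDKN1A and 0.66 with IGFBP7 (-0.39, 0.16 and 0.58 without RES7). The part of other cells in the matrix pattern was not tested.

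FOXO factors and their targets leaned the same way as CDKN1A, with 12 of 14 above 0 and a median rho of 0.61. In the permutation test, however, 0 of 14 passed with CDKN1A or IGFBP7 (9 and 6 at an unadjusted p under 0.05). Of all identifiers, 1.09% and 0.386% followed these markers in the same direction. FOXO3 (341 over 433 to 746, rho = -0.86) and FOXO4 (5.97 over 13.6 to 21.5, rho = -0.90) passed against CDK1, where 1.99% of all identifiers did. Of 12 genes of the IGF system, 0 passed with any of the 3 markers in the permutation test (6 with CDKN1A, 6 with CDK1 and 2 with IGFBP7 at an unadjusted p under 0.05). IGF1, the ligand, had 407 at the lowest, a median of 824 and 1423 in RES7 (rho = -0.72 with CDK1, adjusted p = 0.0612), and IGFBP2, a binding protein, ranged from 48 to 211 (rho = -0.73, adjusted p = 0.0549). Of 19 genes from RAS to ERK, NRAS alone passed with CDK1, a share near the 4.72% of all identifiers. MAP2K1, the ERK kinase, had rho = 0.71 with CDK1 (adjusted p = 0.0693, permutation test). With CDKN1A, 1 gene of this list passed in the same direction and NRAS in the other, against 1.09% and 2.1% of all identifiers.

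Genes of metabolism and protein folding had median rho values above 0 with CDK1, and their counts stand against the 4.72% of all identifiers that passed in that direction. Of 20 glycolysis genes, 19 had a rho above 0 with CDK1 and 3 passed, namely HK2 (3.11 over 18.9 to 111, rho = 0.86), LDHA (374 over 1405 to 3914, rho = 0.83) and PGK1 (1125 over 1721 to 3213, rho = 0.76). Of 50 nuclear subunits of oxidative phosphorylation, 48 were above 0 with a median of 0.46, and 4 passed, a share near that of all identifiers: COX7C, NDUFB5, UQCRFS1 and COX7B (rho = 0.80, 0.77, 0.76 and 0.76). Of 12 heat shock genes, 9 were above 0 and 4 passed, HSPA4L (rho = 0.85), DNAJA1 (rho = 0.82), HSP90AA1 (rho = 0.81) and HSPH1 (rho = 0.78). PDK1, a kinase that inhibits pyruvate dehydrogenase (rho = 0.83), and the collagen hydroxylases P4HA1 (rho = 0.89) and P4HA2 (rho = 0.75) were the 3 of 15 hypoxia genes that passed, with a list median of 0.13, while HIF1A had rho = 0.70 (adjusted p = 0.0717). Cholesterol synthesis, with 20 genes, had 0 passing with any of the 3 markers in the permutation test (2, 3 and 1 at an unadjusted p under 0.05 with CDKN1A, CDK1 and IGFBP7), and its medians were -0.07 with CDKN1A and 0.19 with CDK1.

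**Figure D3:**
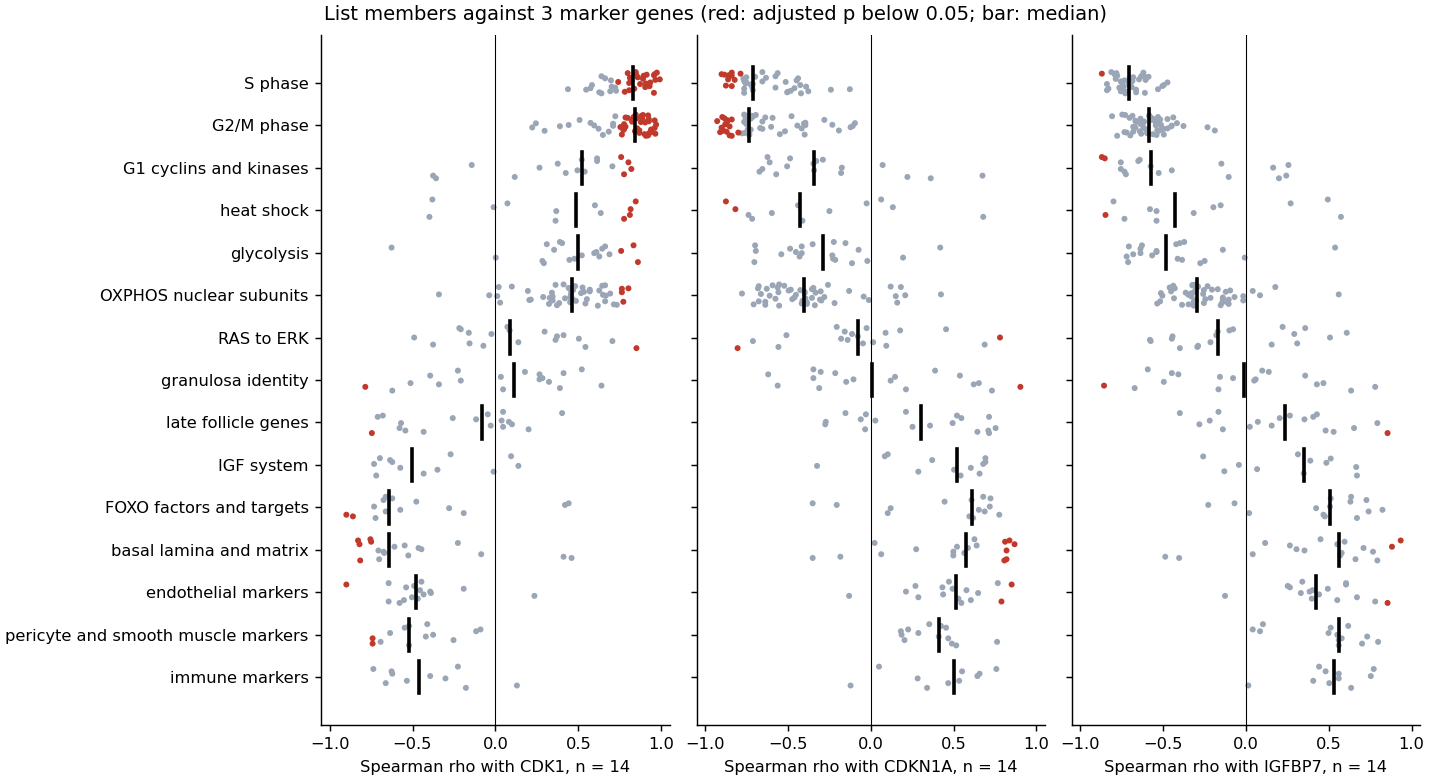
Spearman's rho of each list member with CDK1, CDKN1A and IGFBP7 over the 14 RES samples. Each point is a gene, red where the adjusted p over all identifiers was under 0.05, and the black bar is the list's median. S phase (median 0.83) and G2/M genes (median 0.84) sit at the right with CDK1, and basal lamina genes (median -0.64) at the left.

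Excess variability, the log2 of the squared coefficient of variation (CV) minus its running median over identifiers of similar mean, was at least 1 in 3580 of 17364 identifiers (20.6%). It was 4.03 in IGFBP7, which was above 99.4% of identifiers or level with them, 2.67 in CDK1, 1.11 in CDKN1A, 1.04 in FOXO1 and 0.44 in NRAS. Without RES7 the values for IGFBP7 and CDK1 were 2.57 and 2.23. RES7 was the highest sample in 871 of the 3580 identifiers (24.3%), RES4 in 688 (19.2%) and RES3 in 576 (16.1%). Among all 17364 identifiers, RES7 was above the other 13 in 2526, RES4 in 2176 and RES3 in 3089, so that RES3 led there. Of the 3580, 3095 were still at least 1 above the running median without RES7. Of the 3458 also measured in FF, 2152 (62.2%) were at least 1 above the running median of the FF samples too, against 20.5% of all identifiers.

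Over the 14 samples the highest excess among genes with a symbol and a mean of at least 20 was in ADAMTS20 (6.71), GTSF1 (6.37), STAR (6.2) and ADAMTSL1 (6), each highest in RES7. Without RES7 their values were 4.41, 3.57, 4.06 and 4.38. The genes described next ranked highest by the lower of the excess with and without RES7, which ranks down genes whose excess falls without that sow, so the sows in which they peak are partly set by this choice. CD24, a surface glycoprotein of immature cells, had 0 in RES13, a median of 27.3 and 550.2 in RES4 (excess 5.91). NELL2 (156 over 245 to 1767), MSMB (132 over 255 to 1789.9), ANK3, a membrane adaptor (259 over 514 to 3246), ARID5B, a chromatin regulator (240.0 over 378 to 2230.2), and SH3GL3 (5.94 over 15.4 to 294) also peaked in RES4, while GUCY1A2, a subunit of guanylate cyclase, peaked in RES11 (126 over 217 to 1465). KLHL31 ran from 151.1 in RES7 over 883 to 6184 in RES3. NUGGC, a nuclear GTPase, had 0 in RES2, a median of 24 and 684 in RES14.

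Others varied over many sows. ST6GALNAC5, a sialyltransferase, ran from 20.7 in RES7 over 795 to 4245 in RES1 (excess 5.31). CDH6, a cadherin, ran from 64.9 in RES12 over 408 to 1791 in RES7, with 1740.4 the next highest value (excess 5). ALCAM, an adhesion molecule, ran from 109.5 in RES3 over 435 to 3925 in RES7, against 1653 at the most in the other 13. Excess in FF was between 1.94 (MSMB) and 6.06 (ST6GALNAC5) for these 12 genes.

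The least variable genes at a mean of 100 or more held nearly constant over the 14 sows. LATS1, a kinase of the Hippo pathway, had 2014 to 2366 (CV 0.0458), BTRC, a substrate receptor of ubiquitin ligase, 663 to 791 (CV 0.0495) and ANKHD1 2626 to 3076 (CV 0.0513). ATF6, a sensor of unfolded protein, had 2801 to 3441 (CV 0.0521) and the RNA helicase DDX19B 210.5 to 251 (CV 0.0581).

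**Figure D4:**
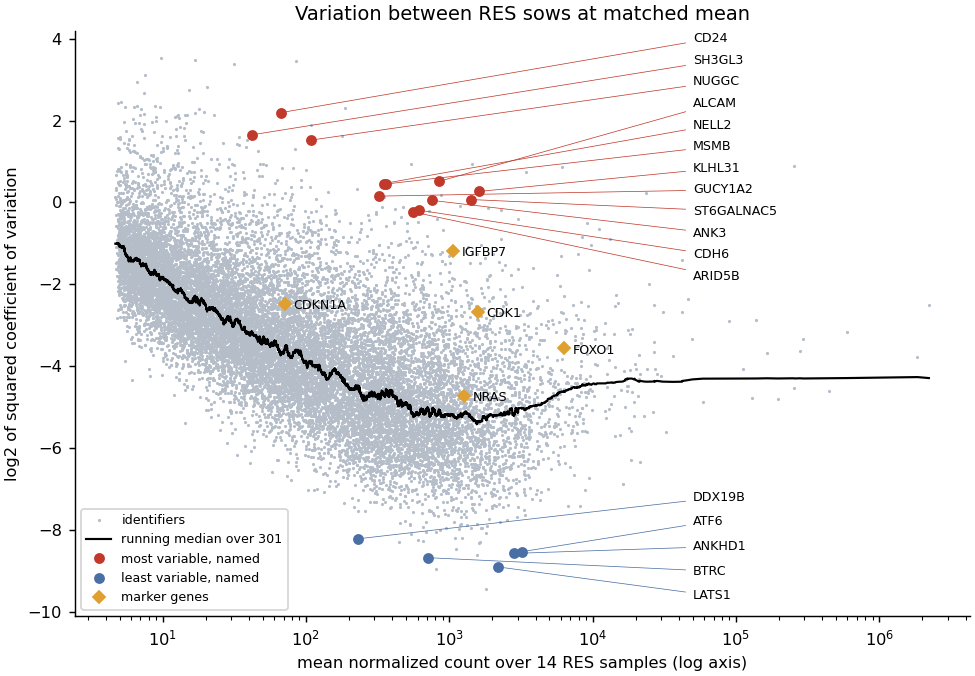
The log2 of the squared coefficient of variation against the mean normalized count (log axis) over the 14 RES samples, 1 grey point per identifier, with the running median in black. IGFBP7 and CDK1 lie 4.03 and 2.67 above the line and NRAS 0.44, while the least variable named genes lie more than 3 below it.

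Across late follicle genes, variation was wide. Of 18 measured, 13 had an excess of at least 1, against 20.6% of all identifiers, with a median of 2.24 against 0 by construction for all. STAR, which carries cholesterol into mitochondria, had 98.2 at the lowest, a median of 998 and 8099 in RES7, and CYP11A1, the first enzyme of steroid synthesis, 82.2, 197 and 779, again with RES7 highest. The study counts CYP11A1 among its theca markers. CYP17A1, another of these, had 1964 in RES7 against 106 to 628 in the other 13. The part of theca cells in the levels of late follicle genes was not tested. The glycolysis list also had a median excess of 2.11 and 13 of 20 members at 1 or more, and its sum peaked in RES3 (36399.6, with a median of 15093). By contrast the median excess of 19 RAS to ERK genes was -0.34.

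Whether spread itself differed between RES and FF was asked with limma on absolute deviations from the group median of log2(normalized count + 1). Of 16887 identifiers, 0 (0%) passed an adjusted p of 0.05, and 656 had an unadjusted p under 0.05, 445 of them wider in RES. The lowest p was that of TC2N, which ran from 0.805 over 5.29 to 24.8 in RES (mean deviation 1.21 against 0.344 in FF, p = 2.73e-05, adjusted p = 0.291 by limma). SLC43A2 had mean deviations of 0.937 and 0.268, OGFOD3 0.59 and 0.16, ARHGAP24 0.587 and 0.201, and CD274, an immune checkpoint ligand, 0.673 and 0.254. On the narrower side, ARHGAP33 had 0.321 in RES against 1.15 in FF, GLA, a lysosomal galactosidase, 0.153 against 0.466, ACCSL 0.233 against 0.679, TBCC 0.124 against 0.363 and BTBD8 0.14 against 0.354.

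RES7 was outside the range of the other 13 sows in 4860 of 17364 identifiers (28%), above it in 2526 (14.5%) and below it in 2334 (13.4%). Measured in the same way, each of the others was outside in 5.52% to 33.8%, and RES3 exceeded RES7 with 5876 identifiers, while RES4 had 3924. RES7 differed at least 2-fold from the median of the others, on the log2(normalized count + 1) scale, in 2995 identifiers (17.2%), against 3472 in RES3 and 980 to 2426 in the remaining 12. RES7 was thus not the only sow to stand apart. Its median correlation of log2 values with the others was the lowest, at 0.925, against 0.942 in RES4 and 0.944 in RES3. As RES7 is a single sample, its differences have no test.

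RES7 was low across the cell cycle. All 42 S phase genes were below the range of the other 13 sows, with a median log2 difference of -1.58. So were 52 of 53 G2/M genes, with a median of -1.40, against 13.4% of all identifiers. The summed S phase level was 14808 against 25289 to 55842 in the others, and the G2/M sum 51417 against 76646 to 189738. GINS2, of the replicative helicase, had 1.04 against 6.78 to 47.6, H2AC12, a replication-dependent histone, 15.5 against 47.6 to 277, and DBF4B, an activator of the CDC7 kinase, 2.07 against 14.7 to 41.6. For GINS2, 3723 of 9382 exon bases overlap GSE1 on the opposite strand.

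Other genes were below every other sow in RES7. ST6GALNAC5 had 20.7 against 130.2 to 4245, SLC14A1, a urea transporter, 0 against 0.893 to 228, and NPTX2, a pentraxin, 0 against 2.65 to 102. MARVELD2, of tight junctions, had 3.11 against 11.9 to 119.7, and ELOVL2, an elongase of fatty acids, 3.11 against 4.87 to 52.1. Of 50 nuclear oxidative phosphorylation genes, 26 were below the range and 0 above, and of 20 glycolysis genes 9 were below and 1 above, against 13.4% below and 14.5% above for all identifiers.

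High values in RES7 led with GTSF1, a germline factor of small RNA silencing (383 against 0 to 39.9), and OR10Z1, named as an olfactory receptor (204 against 0 to 39.6). ADAMTS20, a matrix protease (1591 against 6.19 to 369), ADAMTSL1, a related secreted protein (2906 against 47.3 to 998), and ALCAM (3925 against 109.5 to 1653) were also above every other sow. CHAC1, which degrades glutathione, had 503 against 0 to 172, AGBL1 142 against 0 to 92.9 and BSPH1 169 against 0.885 to 87.5. Of 18 late follicle genes, 4 were above the range and 0 below, against 14.5% above and 13.4% below for all identifiers, so that the count is near the background. LHCGR, STAR and CYP11A1 were among the 4, and the sum of the list was 42489.8 against 6711 to 26743. The theca and stroma sum was highest in RES7 too, at 41973 against 13478 to 33625, and its part in these values was not tested.

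Markers of other cells were high in RES7 at the same time. Of 16 endothelial markers, 12 were above the range of the other 13 and 0 below, as were 9 of 13 pericyte and smooth muscle, 6 of 15 theca and stroma and 9 of 10 immune markers, against 14.5% above for all identifiers. The summed endothelial level was 3562 against 1251 to 2489, and the immune sum 764 against 133 to 376. PECAM1, an endothelial junction protein, had 634 against a median of 337 over the 14 sows, MYH11, the smooth muscle myosin, 1028 against 144, and PTPRC, the leukocyte antigen CD45, 168 against 55.6. COL1A1, a chain of type I collagen, had 4383 against 1334. The part of other cells in the IGFBP7 and CDK1 levels of RES7 was not tested.

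RES3 and RES4 also departed from the others, and the genes given here were named after their values were seen. RES3 had 139 normalized counts of MT1A, a metallothionein, against 0 to 102 in the others, and 5.94 of GPX1, a glutathione peroxidase, against 9.05 to 346. RES4 had 0 of TSC22D3, a glucocorticoid-induced gene, against 3.39 to 96.3, and 0 of KCNA1, a potassium channel, against 13.1 to 154. Its late follicle sum was the lowest, at 6711.

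**Figure D5:**
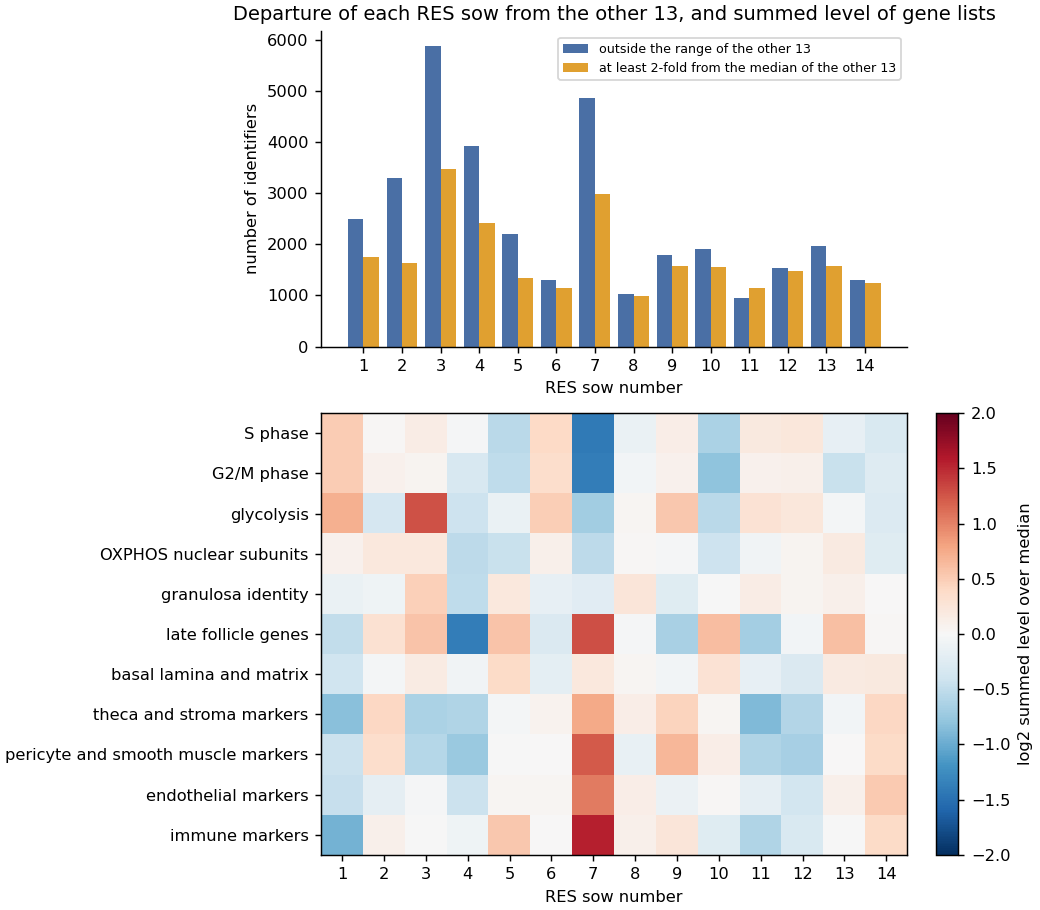
Upper panel, for each RES sow, the number of identifiers outside the range of the other 13 and the number at least 2-fold from their median. Lower panel, log2 of the summed normalized count of each gene list over its median of the 14 sows. RES3 (5876) and RES7 (4860) have the most identifiers outside the range, and RES7 joins the lowest S phase and G2/M sums with the highest endothelial and immune sums.

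Whether a slope on a marker differed between RES and FF was tested with edgeR's quasi-likelihood interaction, each marker centred within its group. Of 16886 identifiers, 10 (0.0592%) differed in slope on CDKN1A, 1 (0.00592%) on CDK1 and 39 (0.231%) on IGFBP7 at an adjusted p under 0.05. SDC2, a cell surface proteoglycan, had rho = 0.45 with CDKN1A in RES and -0.86 in FF, TPP1, a lysosomal peptidase, 0.82 and -0.79, and ADK, adenosine kinase, -0.77 and 0.84. Without RES7 the counts were 15, 0 and 9. With DESeq2's Wald test they were 443, 1 and 467, the 1 on CDK1 being another identifier than edgeR's, and with a replicate block 0, 0 and 0 (1143, 1774 and 1186 at an unadjusted p under 0.05, edgeR).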

How the data were processed

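Mural GCs of 14 RES and 13 FF sows were profiled by UMI RNA-seq after ribosomal RNA removal. The deposited counts are whole-number read pairs per gene, which the authors made by cleaning with SOAPnuke, aligning to Sscrofa11.1 with HISAT2 2.2.1, sorting with SAMtools 1.16.1, removing PCR copies with UMI-tools 1.1.4 and counting on exons of Ensembl release 110 with featureCounts 1.6.2, per the labels and file headers, with no strand option. Members and gene lists were chosen with earlier results of these data known. Normalized counts are counts divided by DESeq2 1.42.0 size factors. Spearman's rho was tested with 100000 permutations and Benjamini-Hochberg adjustment over all identifiers, slopes, interactions and spread with edgeR 4.0.16 and limma 3.58.1 (R 4.3.3). Permutations ran in Python 3.11.15 (scipy 1.17.1, numpy 2.4.6), tables in pandas 2.3.3 and plots in matplotlib 3.10.9. Scripts were tested on simulated data.

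Named genes were the 5 markers, the 12 most and 5 least variable genes with a symbol (mean of at least 20, or 100 for the least variable; ranked by the lower of the excess with and without RES7 for the most variable), the 6 highest and 6 lowest rho per marker (by the value nearer 0 of that with and that without RES7), the 8 largest departures of RES7 in each direction, the 5 lowest p of the spread test in each direction and up to 4 genes per list with the largest rho with CDK1 in size. INHA, INHBA, VCAN, MYC, STAR, CYP11A1, NID2, PTPRC, TPP1, CD74 and the genes of RES3 and RES4 were named after their values were seen. Named genes that overlap exons of others are uncertain, and of 585 symbols with a RefSeq position 118 do. Whole-transcript depth was 12942198 to 18120922 counts per RES sample. No 2 RES samples were alike, the closest pair (RES1 and RES11) differing by 24.7 times the sampling variance. RNA integrity and base quality came from the study's supplement and served only as covariates or to form groups. They were matched by sow number, and whether the supplement numbers the sows as the labels do was not tested. Alternatives were TMM scaling, other count filters, Pearson's r, edgeR slopes with covariates, DESeq2's Wald test, a replicate block and leaving out each RES sow. The split by the unnamed identifier was added after seeing the data. Counts over a list cover its members that were matched by symbol and passed the count minimum, so MKI67 (G2/M) and CYP19A1 (late follicle), not matched here, are not in them. Some members of the lists are not reported here by name.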

Additional observations from a re-analysis of the deposited data

Results flagged for a closer look

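The slope of a gene on a marker was tested for a difference between RES and FF, and 10 identifiers differed for CDKN1A, 1 for CDK1 and 39 for IGFBP7. Values are the RES slope minus the FF slope, in log2 units of the gene per log2 unit of the marker, with edgeR's quasi-likelihood test and Benjamini-Hochberg adjustment, and rho is Spearman's rho within each group.

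On CDKN1A, the 5 symbols of lowest p were CLIP3 (1.22, adjusted p = 0.0215, rho = 0.87 in RES and -0.23 in FF), ADK (-0.65, adjusted p = 0.0267, rho = -0.77 and 0.84), SDC2 (0.78, adjusted p = 0.0267, rho = 0.45 and -0.86), FKBP9 (0.68, adjusted p = 0.0267, rho = 0.78 and -0.78) and SLC43A2 (1.44, adjusted p = 0.0342, rho = 0.92 and -0.16). All 5 also passed without RES7. On CDK1 the identifier was GTSF1 (-6.15, adjusted p = 0.0118), whose adjusted p was 0.253 with DESeq2 and 0.648 without RES7, the sow with 383 counts of it.

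On IGFBP7, the 5 symbols of lowest p were CRISPLD2 (2.94, adjusted p = 0.0165, rho = 0.67 and -0.78), ISOC1 (-1.38, adjusted p = 0.0212, rho = 0.10 and 0.81), CD2AP (-1.23, adjusted p = 0.0281, rho = 0.40 and 0.80), TIMM21 (-1.58, adjusted p = 0.0281, rho = -0.38 and 0.70) and SMARCC2 (1.24, adjusted p = 0.0451, rho = -0.09 and -0.47). The last had an adjusted p of 0.0573 without RES7.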

How the results depend on the processing

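Of 198 alternative values, 119 kept their direction and their side of the threshold, or stayed within 1.5 times a count. Where a value moved, the cause was not tested. The count of highly variable identifiers did not move beyond 1.5 times (3381 to 3730 when leaving out each sow).

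The 555 followers of CDKN1A became 280 with no count filter, 278 with Pearson's r on log2 values and 1182 with r on normalized counts. In edgeR's slope test, the 420 without a covariate became 353 with the library split and 0 each with the quality group and RNA integrity. The count was 0 in the 9 samples below the split (2547 and 2582 with the covariates and 2252 here at an unadjusted p under 0.05). The 1165 of CDK1 became 684 with no count filter, 1828 with r on log2 values, 2035 with edgeR's slope (1797 once the split was added to that fit) and 8 in the 9 samples. The 121 of IGFBP7 became 316 with TMM scaling, 61 with no count filter, 1212 and 830 with r on log2 and on normalized values, 1590 with edgeR's slope (546, 1187 and 1289 once the quality group, RNA integrity or the split was added to that fit) and 0 in the 9 samples (1360 unadjusted). With 9 samples the permutations can hardly pass the adjustment. Leaving out each sow gave 0 to 876 for CDKN1A, 335 to 1535 for CDK1 and 0 to 833 for IGFBP7. The analyses of the library split were chosen after seeing the data.

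Of the marker pairs, CDKN1A and CDK1 lost p under 0.05 in the upper quality group (rho = -0.68). Without the 2 farthest sows, rho was 0.51 for CDKN1A and IGFBP7, -0.52 for CDK1 and IGFBP7, 0.40 for CDKN1A and FOXO1, -0.57 for CDK1 and FOXO1 and 0.49 for IGFBP7 and FOXO1. In the upper quality group it was -0.61 for CDK1 and IGFBP7, 0.61 for CDKN1A and FOXO1, -0.71 for CDK1 and FOXO1 and 0.29 for IGFBP7 and FOXO1, and in the lower group 0.29 for CDKN1A and IGFBP7, -0.21 for CDK1 and IGFBP7, 0.29 for CDKN1A and FOXO1, -0.54 for CDK1 and FOXO1 and 0.57 for IGFBP7 and FOXO1. In the 9 samples it was 0.65, -0.67 and 0.55 for CDKN1A and IGFBP7, CDK1 and IGFBP7, and CDKN1A and FOXO1. CDKN1A and FOXO1 also missed without RES7 (0.53), whereas IGFBP7 and NRAS passed by r (-0.61, or -0.64 on log2 values).

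The spread test called 1 identifier with the group mean as centre, and 0 with TMM, a mean of at least 20, the replicate block or any RES sow left out (657, 464, 683 and 512 to 648 at an unadjusted p under 0.05, limma). DESeq2 called 443 slopes that differ on CDKN1A and 467 on IGFBP7. With the replicate block 0 passed on CDKN1A, 0 on CDK1 and 0 on IGFBP7 (1143, 1774 and 1186 unadjusted, edgeR). Without RES7 the counts were 15, 0 and 9 (2721, 1316 and 2698 unadjusted). RES and FF samples share only a number, since same-number deviations correlated between -0.22 and 0.26 and 1 RES sample was closest to the FF sample of its number. At a mean of at least 20, RES7 was 2-fold from the others in 1596 identifiers.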

Other observations

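Of 15 chaperones of the endoplasmic reticulum, 3 passed with CDK1 in the same direction by the permutation test, against 4.72% of all identifiers. HSP90B1 ranged from 21681 in RES10 over 39907 to 50957 in RES6 (rho = 0.76, adjusted p = 0.0415), HSPA5 from 4932 over 8511 to 14977 in RES3 (rho = 0.76, adjusted p = 0.0429) and CANX from 5029 in RES7 over 7029 to 9343 in RES1 (rho = 0.77, adjusted p = 0.0396). PMAIP1, which encodes the pro-apoptotic protein NOXA, ran from 15.5 in RES7 over 40.1 to 75.1 in RES1 and passed as well (rho = 0.77, adjusted p = 0.0405), as the only gene of 14 of atresia and apoptosis, a share near that of all identifiers.

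Genes of antigen presentation leaned the other way, with all 11 measured below 0 against CDK1 and a median rho of -0.50. Of the 11, 2 passed against CDK1, where 1.99% of all identifiers did. CD74, the invariant chain, had 2.71 in RES1, a median of 12.8 and 51.8 in RES7 (rho = -0.86, adjusted p = 0.00808), and SLA-DMA 4.06 to 23.8 (rho = -0.81, adjusted p = 0.0234). The summed immune markers were highest in RES7 too and had a rho of -0.62 with CDK1 (-0.53 without RES7). Their part in the pattern of antigen presentation genes was not tested. AMHR2, the receptor of anti-Müllerian hormone, ran from 38.5 over 87.4 to 172 in RES7 and followed CDKN1A (rho = 0.90, adjusted p = 0.019, permutation test). Of 30 interferon-stimulated genes, 1 passed with CDK1 in the same direction, IFIT5 (rho = 0.86), a share below the 4.72% of all identifiers.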
